A study of Mus musculus with 2 samples.

Results

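Cluster 6 is a group of 1320 cells, named stromal from cell numbers alone, that came almost wholly from 1 of 2 muscle libraries. Its members were chosen by their deposited cluster number, which was made from the measured expression of all cells: they are the cells numbered 6, 1320 of 17813 cells, of which 1277 were among the 7156 mdx cells and 43 among the 10657 cKO cells. The mdx library therefore gave 96.7% of the cluster (95% interval 95.6% to 97.6%). The cluster was chosen with this imbalance known. Every value that sets cluster 6 against another cluster, or its share in 1 library against the other, is therefore a description, with no test.

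Both genotypes carried the mdx mutation on a BL/10 background, which leaves muscle without dystrophin and in repeated cycles of damage and repair. The cKO mice also carried floxed Spp1 alleles, with LoxP sites around exons 2 and 3, and the Lyz2-Cre driver, which is active in myeloid cells, so that other cell types were not the target of the deletion. The mdx library is labelled by its title as mdx muscle and by its genotype field as a wild-type control. This was read here as Spp1 that was not deleted. Whether these mice carried floxed alleles without Cre is not stated. Mononucleated cells came from limb and diaphragm muscles pooled together, from 3 mice of each genotype. The mice were 3 months old, also stated as 12 weeks. Neither mice nor muscles can be separated in the table, and with 1 library for each genotype no test was possible. All intervals given with a share are exact (Clopper-Pearson) 95% binomial intervals, which cover counting error only and not differences between mice or preparations.

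Stromal cells of muscle lie between the fibers, carry the receptor Pdgfra and include the fibroadipogenic progenitors (FAPs), which support repair and can turn into fat cells or matrix-producing fibroblasts. Spp1 encodes osteopontin, a secreted protein that macrophages make in damaged muscle. Among the markers proposed for cluster 6, Lifr is a receptor subunit for leukemia inhibitory factor, Procr is the endothelial protein C receptor, Cebpd is a transcription factor of early fat cell differentiation, Klf9 is a Krüppel-like transcription factor, Apod is a lipid-binding lipocalin and Cxcl13 is a chemokine that attracts B cells. The table holds no value for any gene, so none of these 7 markers could be checked and no cell is called Lifr+ or Procr+ here. The stromal name of clusters 0, 2, 6 and 17 rests on their cell numbers alone, 2131 in mdx and 3025 in cKO in sum, which match the cells per type that accompany the study but not the smaller set of stromal cells that it subclustered. For each cell the table gives the unique molecular identifiers (UMIs, each tagging 1 captured transcript), the genes detected, the mitochondrial share of UMIs, and an S and a G2M score for genes of those cell cycle phases.

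Cluster 6 was the largest of the 20 clusters in mdx muscle and the smallest in cKO muscle. In mdx it took 17.8% of the library (16.96% to 18.8%), and in cKO 0.403% (0.292% to 0.543%). Among stromal cells, it held 59.9% in mdx (57.8% to 62.0%) and 1.42% in cKO (1.03% to 1.91%). The cKO shares moved with the filter beyond these intervals: among stromal cells from 0.538% with at least 2000 UMIs to 3.65% with 200 to 1800 genes, and among all cKO cells from 0.173% to 0.762% under the same settings. The mdx shares of stromal cells under these settings were 54.9% and 83.2%. Its weight in RNA was smaller than its weight in cells, as it held 10.8% of all mdx UMIs and 36.7% of mdx stromal UMIs. The other large stromal clusters had fewer cells in mdx, as cluster 0 held 505 mdx and 1565 cKO cells, and cluster 2 held 269 and 1345. As 1 library stands for each genotype, a cell population of mdx muscle and a property of the mdx library cannot be told apart. The libraries summed to 43185486 UMIs in mdx and 59240298 in cKO and shared 20 cell barcodes. Among mdx cells of cluster 6, 3 shared a barcode with a cKO cell, which lay in cluster 4 for 1 of them and in cluster 0 for the others, and no cKO cell of cluster 6 shared one with mdx.

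The mdx cells of cluster 6 held fewer transcripts than those of the other large stromal clusters. They ranged from 501 to 25400 UMIs, with a median of 3011 and quartiles of 2065 and 4439. The median was 8251 UMIs in mdx cluster 0 and 7859 in mdx cluster 2, so that cluster 6 stood at 0.374 of the median of both together. The small stromal cluster 17, with 80 mdx cells, had a median of 2781.5 UMIs, and cluster 6 was 1.08 times as high. The distributions overlapped, since 5.64% of mdx cells of cluster 6 held 8000 UMIs or more, but 49.6% held under 3000. A cell with little RNA and a cell from which little RNA was captured cannot be told apart here.

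**Figure D1:**
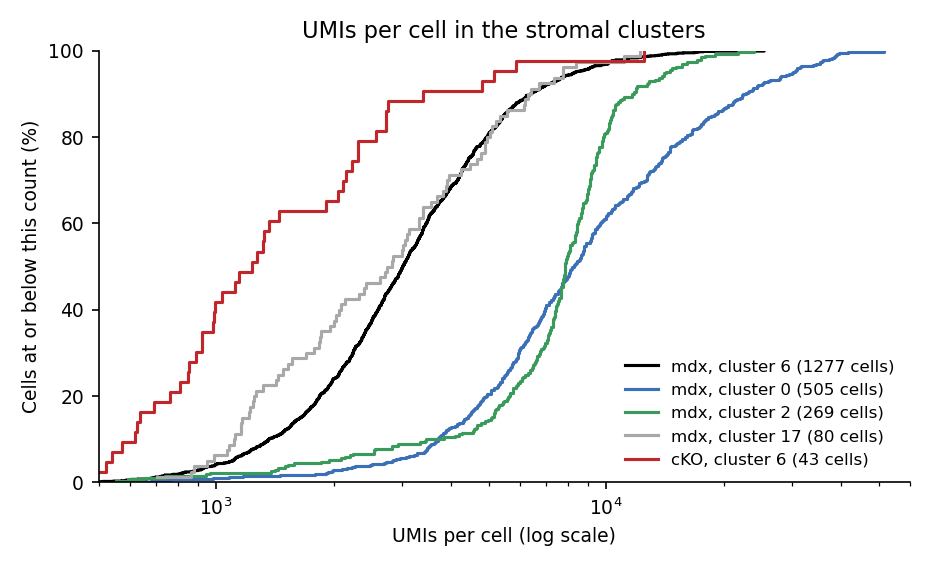
Cumulative share of cells (vertical axis, percent) by UMIs per cell (horizontal axis, log scale) for cluster 6 in mdx (1277 cells, black) and cKO (43 cells, red) and for mdx clusters 0, 2 and 17 (505, 269 and 80 cells). The cluster 6 curve of mdx runs beside that of cluster 17, with medians of 3011 and 2781.5 UMIs, and to the left of clusters 0 and 2, with medians of 8251 and 7859, while the cKO cells of cluster 6 lie lowest, with a median of 1235.

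Stromal cells of like UMI count were divided differently in the libraries. The share in cluster 6 was larger in mdx in all 8 bins of UMIs, but the cluster was chosen as nearly mdx only. A larger mdx share was thus largely fixed beforehand, and the bins only describe how the shares varied with the UMI count. In these bins, which were chosen after seeing the data, cluster 6 held 77.1% of mdx stromal cells from 500 to 1000 UMIs, 89.3% from 2000 to 3000, 65.0% from 4000 to 6000, 30.6% from 6000 to 8000 and 10.3% from 12000. The mdx share was thus above 60% in every bin below 6000 UMIs and fell in each bin above 3000. In cKO it held 18 of 69 stromal cells from 500 to 1000 UMIs, or 26.1% (16.3% to 38.1%), then 5.92% from 1000 to 2000 and 3.92% from 2000 to 3000. From 3000 UMIs up, it held 643 of 1401 mdx stromal cells, or 45.9% (43.3% to 48.5%), and 5 of 2532 cKO stromal cells, or 0.197% (0.0641% to 0.460%). Below 3000 UMIs the shares were 86.8% in mdx (84.2% to 89.2%) and 7.71% in cKO (5.51% to 10.4%). From 6000 to 8000 UMIs, cluster 6 held 0 of 535 cKO stromal cells. A limit of 3 counts allows a share of up to 0.561% there, and the exact interval reached 0.687%. The interval of the mdx share in that bin began at 24.9%.

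**Figure D2:**
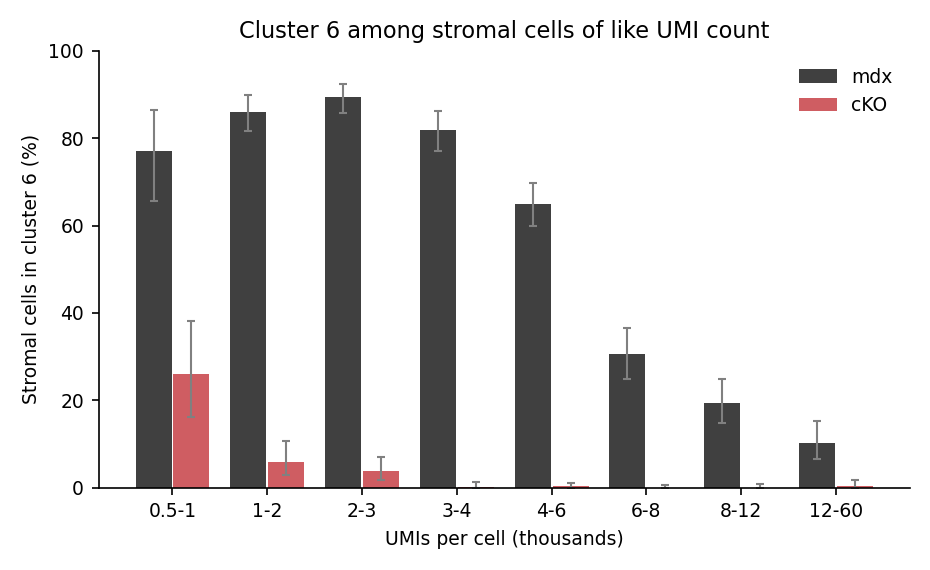
Share of stromal cells (clusters 0, 2, 6 and 17) that lay in cluster 6 (vertical axis, percent) by UMIs per cell (horizontal axis, in units of 1000 UMIs), for mdx (black bars) and cKO (red bars), with exact 95% binomial intervals as gray lines. The mdx bars stay above the cKO bars in all 8 bins, and the cKO bar is highest in the lowest bin, at 26.1%.

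At the same UMI count, cells of cluster 6 held about as many genes as those of clusters 0 and 2. The median was 1274 genes per mdx cell of cluster 6 (quartiles 973 and 1698), against 2603 in cluster 0 and 2510 in cluster 2. Each cell was then set against the median of mdx cells of clusters 0 and 2 within 10% of its UMI count, for the 1112 of 1277 cells with at least 5 such cells. The ratio of genes had a median of 0.993, with quartiles of 0.945 and 1.04, and lay under 1 in 595 cells. Against cluster 0 alone the median was 0.994, and against cluster 2 alone 0.987. The ratio was 1.01 for cells under 3000 UMIs, where 469 of 634 cells found a match, and 0.987 for the 643 cells from 3000 UMIs up. Against cluster 17 it was 1.05 over 1042 matched cells, and 30.2% of these lay under 1. Between the libraries, cKO cells of clusters 0 and 2 held 1.06 times the genes of mdx cells of those clusters at the same UMI count, an offset as wide as that against cluster 17.

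**Figure D3:**
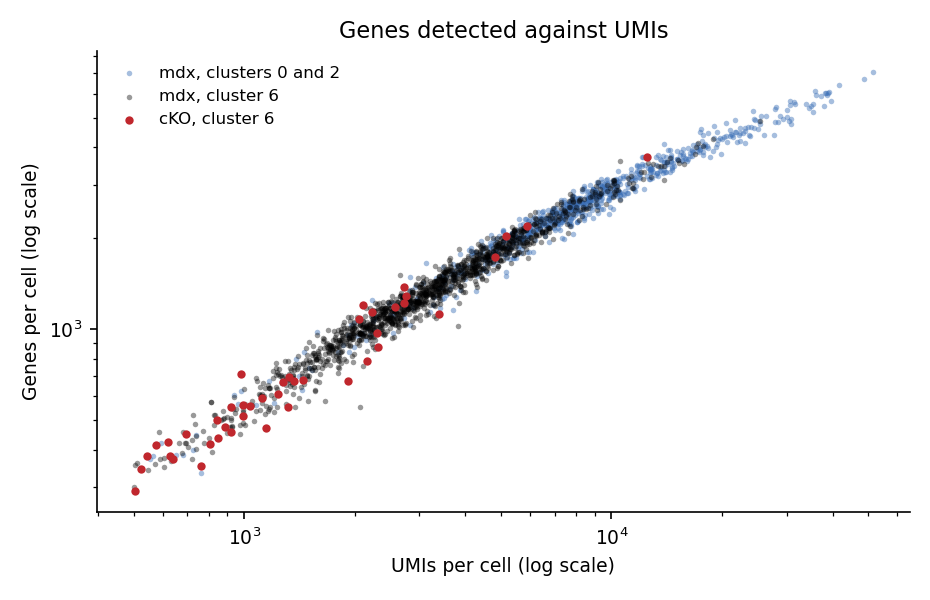
Genes detected (vertical axis, log scale) against UMIs (horizontal axis, log scale) per cell for mdx cells of clusters 0 and 2 (blue), mdx cells of cluster 6 (black) and cKO cells of cluster 6 (red). The points lie along 1 band, in which cluster 6 takes the lower part, with a median of 3011 UMIs and 1274 genes in mdx.

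The mitochondrial share of the mdx cells of cluster 6 lay, by median, below that of mdx clusters 0 and 17. It was near that of mdx cluster 2 over all cells, but below it at the same UMI count. Its median was 2.98% of UMIs (quartiles 2.28% and 3.97%), against 3.46% in mdx cluster 0, 3.02% in mdx cluster 2 and 3.87% in mdx cluster 17. The difference from clusters 0 and 2 together was -0.363 percentage points, and that from cluster 2 alone was -0.0334. At the same UMI count the median difference from clusters 0 and 2 was -0.692 percentage points, and 773 of the 1112 matched cells lay below the cells they were matched to. Against cluster 2 alone it was -0.583, with 397 of 615 matched cells below, and against cluster 0 alone -0.748, with 737 of 1037 below. By UMI count, the median in cluster 6 ran from 3.64% in the 54 cells under 1000 UMIs to 2.77% in the 240 cells from 3000 to 4000 and 3.30% in the 21 cells from 12000. From 1000 to 2000 UMIs it was higher than in mdx clusters 0 and 2, at 3.41% against 3.03%. The same held from 8000 to 12000 UMIs, at 3.24% against 3.14%, while in the other bins the median of cluster 6 was lower. The table ends at 9.99% mitochondrial UMIs, below the limit stated in the study's methods, so cells above that share are not represented in any cluster and the filter that removed them is not known.

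Few mdx cells of cluster 6 had high cell cycle scores. The phase calls put 1018 cells in G1, 180 in S and 79 in G2M, so that 20.3% (18.1% to 22.6%) were called S or G2M, against 11.3% in cluster 0 and 7.06% in cluster 2. Such a call is made whenever the higher of the S and G2M scores is above 0, and in cluster 6 the share of these calls was 53.7% under 1000 UMIs, 30.4% from 1000 to 2000, 22.6% from 2000 to 3000, 15.0% from 3000 to 4000 and 3.92% from 8000 to 12000. Clusters 0 and 2 gave 63.6% under 1000 UMIs and 1.91% from 8000 to 12000, so the phase calls fell with the UMI count up to 12000. From 12000 UMIs they were higher again, at 35 of 181 cells in clusters 0 and 2, or 19.3%, and 2 of 21 cells in cluster 6, or 9.52%. With a threshold of 0.2 on the higher score, 2 of 1277 cells of cluster 6 passed, or 0.157% (0.0190% to 0.565%), against 21 of 505 in cluster 0, or 4.16%, and 3 of 269 in cluster 2, or 1.12%. In mdx cluster 17, 0 of 80 cells passed, with an exact interval up to 4.51%. The 2 cells of cluster 6 that passed held 8993 and 25400 UMIs, with G2M scores of 0.56 and 0.29. Cluster 6 had 21 cells from 12000 UMIs up, where clusters 0 and 2 had 181, and the part of this in the difference between the shares was not tested. In cluster 11, where every mdx cell was called S or G2M, 95.4% passed the same threshold. At the same UMI count, the median difference between cluster 6 and clusters 0 and 2 was 0.0089 in the S score and 0.0025 in the G2M score.

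The 43 cKO cells of cluster 6 were poorer in transcripts than the mdx cells of the same cluster. They ranged from 504 to 12485 UMIs, with a median of 1235 and quartiles of 847.5 and 2269, and 88.4% held under 3000 UMIs. Their median was 0.224 of that of cKO clusters 0 and 2, which stood at 5517.5 UMIs. They held a median of 611 genes, and at the same UMI count 0.984 times the genes of mdx cells of cluster 6 (quartiles 0.912 and 1.08, 42 cells matched). The 5 cells from 3000 UMIs up held 3382, 4815, 5171, 5883 and 12485 UMIs, with mitochondrial shares of 9.49%, 1.91%, 3.17%, 2.04% and 3.73%. Of these 5, only the first lay outside the middle 90% of the mdx mitochondrial values, which ran from 1.44% to 6.02%.

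The mitochondrial shares of the cKO cells were spread to both ends. Their median was 1.58%, with quartiles of 0.221% and 4.73%. Under 1% were 19 of 43 cells, or 44.2% (29.1% to 60.1%), against 26 of 1277 mdx cells of cluster 6, or 2.04% (1.33% to 2.97%), and 21 of 2910 cKO cells of clusters 0 and 2, or 0.722%. Among cells under 3000 UMIs the counts were 19 of 38 in cKO cluster 6 (33.4% to 66.6%), 21 of 634 in mdx cluster 6, or 3.31%, and 14 of 435 in cKO clusters 0 and 2, or 3.22%, so the difference was also present at low UMI counts. The 19 cells held 0 to 13 mitochondrial UMIs each, with a median of 995 UMIs and 554 genes. Over 6%, a limit set after seeing the data, were 10 of 43 cKO cells, or 23.3%, and 66 of 1277 mdx cells, or 5.17%. In cKO clusters 0 and 2 the count was 253 of 2910 cells, or 8.69%. Under 3000 UMIs it was 9 of 38 cells in cKO cluster 6, or 23.7%, and 50 of 634 in mdx cluster 6, or 7.89%. In cKO clusters 0 and 2 it was 115 of 435 there, or 26.4%. At low UMI counts the share over 6% was thus not higher than in those clusters. The remaining 14 cKO cells of cluster 6, from 1% to 6%, had a median of 2404 UMIs. They held 1.08 times the genes of mdx cells of cluster 6 at the same UMI count, against 0.932 for those under 1% and 0.984 for those over 6%. These ratios are between libraries and were not adjusted for the offset of 1.06 seen in clusters 0 and 2. Among the 20 cKO clusters, shares under 1% higher than that of cluster 6 were found in cluster 7 (84.7% of 679 cells) and cluster 9 (54.7% of 322 cells). Whether cKO cells of cluster 6 belong with either was not tested, as the table holds no marker genes.

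**Figure D4:**
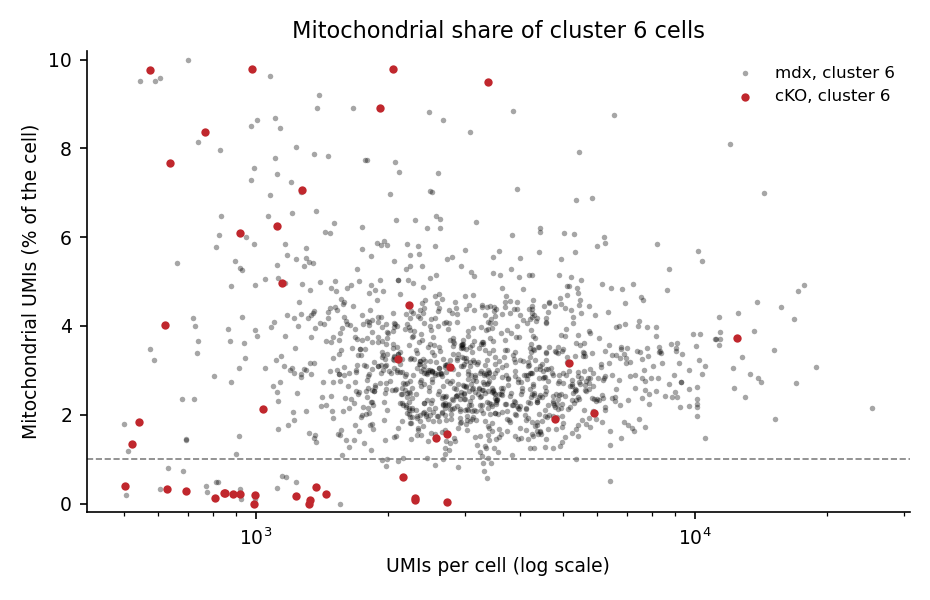
Mitochondrial share of UMIs (vertical axis, percent) against UMIs (horizontal axis, log scale) for the 1277 mdx cells (black) and 43 cKO cells (red) of cluster 6, with a dashed line at 1%. A group of 19 cKO cells lies under the line, beside 26 mdx cells, and 10 cKO cells lie above 6%.

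The cKO cells of cluster 6 also had higher median cell cycle scores than mdx cells of the cluster at the same UMI count, with a median difference of 0.028 in the S score and 0.027 in the G2M score. Of the 42 matched cells, 18 lay below the mdx cells in the S score and 15 in the G2M score. Called S or G2M were 23 of 43 cells, or 53.5% (37.7% to 68.8%), but these calls depend on the UMI count, and the order of the libraries was not the same in every bin. Under 1000 UMIs the share was lower in cKO, at 8 of 18 cells, or 44.4%, against 53.7% in mdx cluster 6. From 1000 to 2000 UMIs it was 6 of 10 cells in cKO against 30.4% in mdx, and from 2000 to 3000 it was 7 of 10 against 22.6%. Under 1500 UMIs, which holds 27 of the cKO cells, the intervals overlapped, at 48.1% in cKO (28.7% to 68.1%) and 40.9% in mdx (33.1% to 49.1%). A score above 0.2 was found in 5 of 43 cells, or 11.6% (3.89% to 25.1%), and a score above 0.1 in 20.9%, against 0.157% and 0.940% of mdx cells of the cluster. These 5 cells held 627, 995, 1326, 2730 and 12485 UMIs, and the 3 with the fewest were all under 1% in mitochondrial share. Under 1500 UMIs, 3 of 27 cKO cells of cluster 6 passed the threshold. So did 0 of 154 mdx cells of the cluster and 1 of 106 cKO cells of clusters 0 and 2. For the count of 0, a limit of 3 counts allows a share of up to 1.95%, and the exact interval reached 2.37%. Of the cKO cells above the threshold, 4 had fewer UMIs than both mdx cells that passed it.

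**Figure D5:**
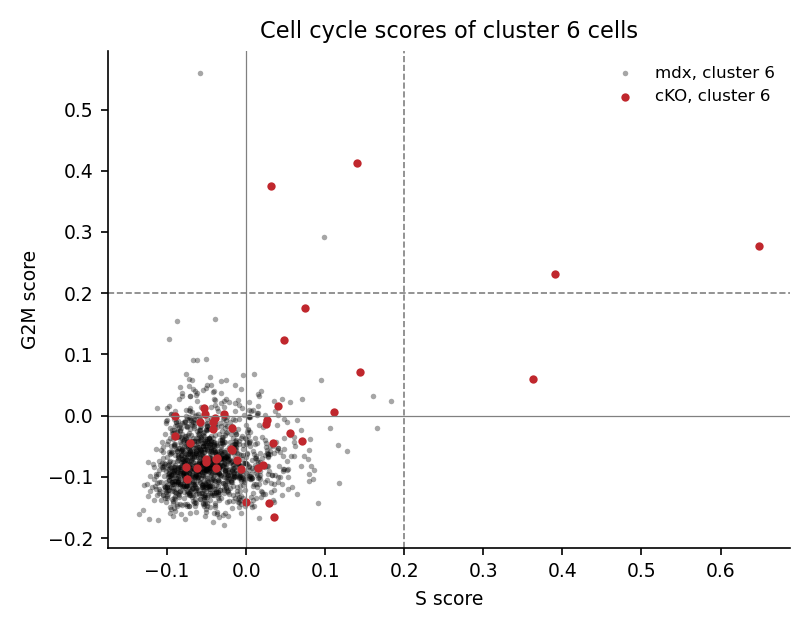
G2M score (vertical axis) against S score (horizontal axis), both without units, for mdx cells (black) and cKO cells (red) of cluster 6, with solid lines at 0 and dashed lines at 0.2. Beyond a dashed line lie 5 of 43 cKO cells and 2 of 1277 mdx cells.

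Measured against the mdx cells, few cKO cells of cluster 6 were alike on every measure at once. The middle 90% of the mdx values was taken for the UMI count, the genes at the same UMI count, the mitochondrial share and both scores. The mdx cells set these ranges, so about 90% of them lay inside each by construction. Their share on all 5 measures is thus not an independent reference. Only the genes were compared at the same UMI count, and the part of the UMI count in the other measures was not tested. Nor were the ranges adjusted for differences between the libraries. In clusters 0 and 2 the median was 5517.5 UMIs in cKO and 8041 in mdx, and cKO cells there held 1.06 times the genes at the same UMI count. The part of these differences in the counts below was not tested. Of the cKO cells of cluster 6, 23 of 43 lay inside for UMIs, 27 of 42 for genes, 13 of 43 for the mitochondrial share, 32 of 43 for the S score and 30 of 43 for the G2M score. The mitochondrial share set the most cells apart, with 20 below the mdx range and 10 above it. Shares over 6% were also found in 26.4% of cKO cells of clusters 0 and 2 under 3000 UMIs. Inside on all 5 measures were 3 of 42 cKO cells, or 7.14% (1.50% to 19.5%), and 787 of 1270 mdx cells, or 62.0% (59.2% to 64.6%). With 43 cells from 1 library, this describes these cells and not the genotype.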

How the data were processed

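Mononucleated muscle cells were captured on the 10x Genomics platform, in 1 library per genotype. Cell Ranger 7 and mm10 are listed in the submitters' processing notes, and the study's methods name Seurat for normalization, clustering and integration of the samples. Aligner settings and the method of cell cycle scoring were not found in those sources. The authors deposited 1 table with a row per cell: UMI and gene counts as raw whole numbers, the mitochondrial fraction of UMIs (multiplied into percent here), the S and G2M score, a phase call, and a cluster number made at a resolution of 0.5. Both deposited cluster columns held the same number in all cells. Per the file headers, the clustering graph was built on the RNA assay. Libraries named Pos and Neg were read as Cre-positive (cKO) and Cre-negative (mdx), a reading from their names and cell numbers. The methods keep cells with 200 to 1800 genes, but 8040 of the deposited cells lie above 1800, 267 of them mdx cells of cluster 6. The stated mitochondrial limit is 20%, but no deposited cell exceeds 9.99%, so the filter behind the table is not known. Doublets were not called, and their treatment before deposit is not stated.

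Shares with exact intervals, medians and quartiles over cells, and comparisons at the same UMI count (comparison cells within 10% of the count, at least 5 of them) were obtained with SciPy 1.17.1, NumPy 2.4.6 and pandas 2.3.3 under Python 3.11.15, and plotted with Matplotlib 3.10.9. Thinning to 1 depth needs counts per gene, which the table lacks. A count of 0 was given a limit of 3 counts. The ratio of genes at the same UMI count and the interval of a median were tested on simulated data, and the other computations were not. With 43185486 UMIs in mdx and 59240298 in cKO, the 43 cKO cells set the precision. No gene was named with a value, the rule for a table without expression values. The cluster, the marker list and the thresholds were chosen with earlier results of these data known. The study's own stromal subclusters were not analysed here.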

Additional observations from a re-analysis of the deposited data

How the results depend on the processing

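Each genotype has 1 library, so none was left out, and the 43 cKO cells limit every cKO share. No paired analysis was possible because the result comes from no test and each genotype has 1 library. Of 63 values under other settings for 13 results, 40 stayed within the interval of the value reported. Settings on 1% mitochondrial UMIs and 2000 UMIs were added after seeing the data.

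The share of mdx cells in cluster 6 became 22.1% without macrophage clusters (1, 3, 4, 11 and 12, named by cell numbers), 22.4% with 200 to 1800 genes, 20.1% with at least 1% mitochondrial UMIs and 16.2% with at least 2000 UMIs. The share of mdx stromal cells became 83.2% with 200 to 1800 genes, 62.3% over clusters 0, 2 and 6, and 54.9% with at least 2000 UMIs. The share of cKO cells became 0.247% with at least 1000 UMIs, 0.283% with at least 500 genes, 0.732% without macrophage clusters, 0.762% with 200 to 1800 genes, 0.245% with at least 1% mitochondrial UMIs and 0.173% with at least 2000 UMIs. The share of cKO stromal cells became 0.846% with at least 1000 UMIs, 0.973% with at least 500 genes, 3.65% with 200 to 1800 genes, 0.804% with at least 1% mitochondrial UMIs and 0.538% with at least 2000 UMIs. The mean UMIs of mdx cluster 6 were 3638, against the median of 3011. The mitochondrial difference was -0.692 percentage points at the same UMI count and -0.0334 against cluster 2 alone without matching. With a score threshold of 0.1, 0.940% of mdx and 20.9% of cKO cells of cluster 6 passed. Inside the middle 50% of the mdx values on all 5 measures were 0% of cKO cells and 39 of 1270 mdx cells. Each value follows from the changed set of cells, denominator, statistic or threshold, and other causes were not tested.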
